A study of Bos taurus with 30 samples.

Results

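Among 33347 regions of open chromatin in bovine germinal vesicle-stage (GV) oocytes, 865 had no open region in 2-cell embryos, overlapped an open region of 4-cell embryos and overlapped none in the inner cell mass (ICM). They were chosen from peak lists of untreated samples alone. For each stage, the ATAC-seq peaks of 3 replicates were merged wherever they shared at least 1 bp, and a merged region was kept if peaks of at least 2 replicates lay in it. Of the 33347 GV oocyte regions, 32719 had no 2-cell region, 10896 of these overlapped a 4-cell region, and 865 of those overlapped no ICM region. The 865 regions made up 2.59% of all GV oocyte regions and 7.94% of those regained at the 4-cell stage, and covered 630 kb.

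ATAC-seq uses a transposase that cuts DNA where nucleosomes or bound proteins do not block it, so a peak marks accessible chromatin such as an active promoter or enhancer. The GV oocyte is a fully grown oocyte held in meiotic prophase, whose stored RNA and protein carry the embryo through its first cleavages. In cattle the major wave of embryonic genome activation (EGA) comes at about the 8-cell stage, and the ICM, from which embryonic stem cells (ESC) are derived, forms later in the blastocyst. α-Amanitin inhibits RNA polymerase II, so embryos cultured with it are transcription blocked embryos (TBE) that rely on maternal products.

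The series held 30 libraries, 3 for each of 10 groups. The 3 libraries of each oocyte and embryo group came from separate oocyte collections, and the embryos of a collection were divided between treated and untreated culture at the 2-, 4- and 8-cell stages. The sources do not say whether the 3 ESC libraries came from separate derivations. Untreated groups were GV oocytes taken before maturation, in vitro produced embryos at the 2-cell (30 to 32 h post-insemination), 4-cell (day 2), 8-cell (day 3) and morula (day 5) stages, ICM freed from blastocysts by immunosurgery, and ESC, which were bovine lines grown on irradiated mouse feeder cells. TBE were collected at the 2-, 4- and 8-cell stages after culture with α-amanitin at 50 µg/ml. Every embryonic library was made from a pool of embryos, so a lower share of open regions and fewer embryos with an open region cannot be told apart. No breed, strain or genetic change distinguished the groups in the labels, and the treated and untreated embryos of a stage were of the same age.

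The number of peaks ranged from 925 to 247513 per library. Read totals were not in the peak lists, but the authors' peak caller leaves a trace of depth: the genome background level, the number of extended reads expected over a base without enrichment, could be solved from fold enrichment and p-value in 28 of 30 libraries. Summed over 3 replicates it was 1.00 in GV oocytes, 1.17 in 4-cell embryos, 2.93 in 8-cell embryos, 2.10 in morulae, 1.99 in ICM, 1.24 in ESC and 5.41 in 8-cell TBE. In 4-cell TBE it was only 0.615, and in the 2-cell stage it was at most 1.06 in control embryos and 0.679 in TBE. No pair of lists was identical.

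The rule itself rested on calls that were not unanimous. In the oocyte, 506 of the 865 regions had a peak in all 3 libraries and 359 in 2. At the 2-cell stage, 734 had no peak in any library and 131 had a peak in 1 library, but the lists of that stage were short (1002 to 6440 peaks), and a region that was open but not called could not be recognised in them. In 4-cell embryos, 175 regions had a peak in all 3 libraries, 673 in 2, and 17 in 1, where the 4-cell region extended beyond the oocyte region. In the ICM, 426 regions had no peak in any library, 422 had a peak in 1, and 17 had peaks in 2 libraries that did not overlap each other. The name "lost by ICM" therefore described the absence of a replicated ICM region, and about as many of the 865 regions had a peak in some ICM library as had none.

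The share of the 865 regions with a peak was 85.8%, 88.3% and 84.4% in the 3 GV oocyte libraries, 1.62%, 2.66% and 10.9% in the 2-cell libraries, 93.6%, 74.3% and 50.3% in the 4-cell libraries, and in the ICM libraries a peak was called in 130, 106 and 220 of the regions. These shares follow from the rule. The other 18 libraries were not used by it. In untreated 8-cell embryos the share was 62.8%, 53.1% and 56.0%, in morulae 49.2%, 71.1% and 59.0%, and in ESC 15.4%, 44.7% and 38.8%. In TBE it was 1.62%, 15.1% and 21.3% in 2-cell, 57.5%, 9.02% and 7.28% in 4-cell, and 91.0%, 97.6% and 69.5% in 8-cell embryos. Among the groups that the rule did not use, 8-cell TBE had the highest shares, and the shares of untreated 8-cell embryos and morulae overlapped.

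**Figure D1:**
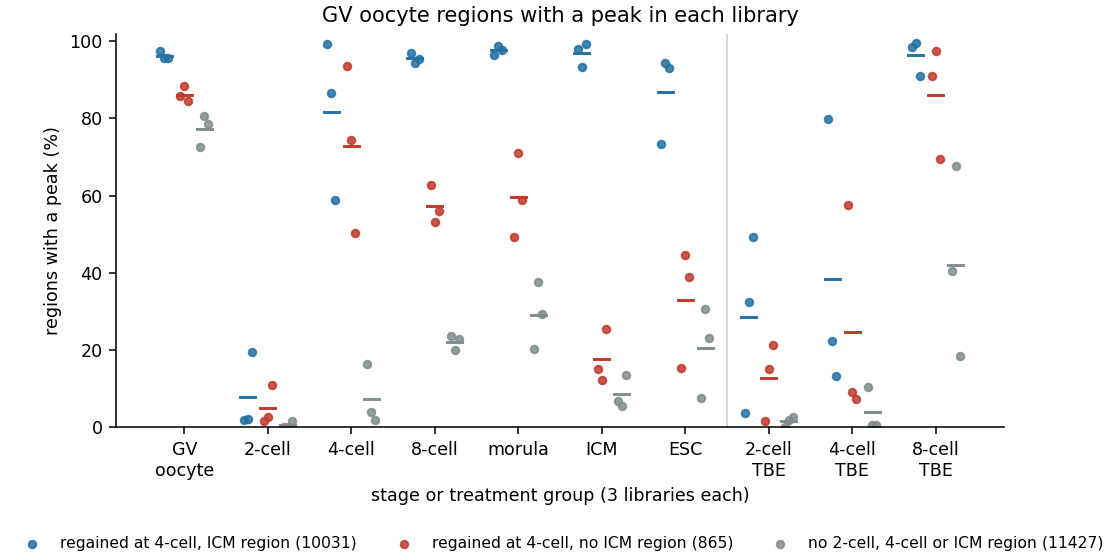
Percent of GV oocyte regions with a peak in each of 30 libraries (y axis), by stage or treatment group (x axis). Each point is a library and each bar the mean of 3, for the 865 regions regained at the 4-cell stage with no ICM region (red), the 10031 regained with an ICM region (blue) and the 11427 with no 2-cell, 4-cell or ICM region (grey). In GV oocytes, 2-cell, 4-cell and ICM libraries the order of the sets follows from the rule. In 8-cell embryos, morulae and ESC the red points lay between the blue and the grey ones within each library.

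The oocyte peaks of the 865 regions were of middling strength. Fold enrichment is the pile-up of reads in a peak over the local background, as the authors' peak caller gave it, averaged here over the libraries with a peak. Its median in GV oocytes was 4.20 over the 865 regions, 4.87 over the 10031 regions regained at the 4-cell stage that kept an ICM region, 3.85 over the 11427 regions with no 2-cell, 4-cell or ICM region, and 4.22 over all 33347. Their median width was 638 bp (202 to 3178 bp), against 874 bp in regained regions with an ICM region and 700 bp over all. In 4-cell embryos their median fold enrichment was 3.93, against 4.50 in regained regions with an ICM region. Across the 865 regions, GV oocyte and 4-cell fold enrichment had a Spearman correlation of 0.490, given as a description because regions of the same libraries are not independent. The 4-cell region covered at least 50% of the oocyte region in 695 cases (80.3%), and the median shared length was 378 bp.

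The 3 strongest regions with a peak in all 6 GV oocyte and 4-cell libraries, of 119 with such peaks, showed how far their later course varied. The first lay on an unplaced scaffold and was 296 bp wide. Its fold enrichment was 6.18, 6.19 and 5.34 in GV oocytes and 8.89, 9.36 and 6.60 in 4-cell embryos. In 1 of 3 2-cell libraries it had a peak of 9.91, above its oocyte and 4-cell values, and it had peaks in 2 2-cell TBE libraries (7.20 and 10.1). Among later untreated libraries it had a peak in 1 of 3 8-cell libraries (6.29) and 1 of 3 ICM libraries (4.61), but it reached 15.7, 10.5 and 11.9 in 8-cell TBE. The second, chr14:79701219-79701802 (ARS-UCD1.2), had 5.38, 10.4 and 8.01 in GV oocytes and 7.00, 6.46 and 5.05 in 4-cell embryos. It had peaks in all 3 libraries of 8-cell embryos (5.88, 6.95 and 9.10), of morulae (7.47, 10.0 and 6.76) and of 8-cell TBE (6.20, 5.23 and 7.73). It had a peak of 2.78 in 1 ICM library, and in ESC it was open again in 2 libraries (6.27 and 6.10). The third, chr24:29022757-29023323, had 7.85, 7.85 and 6.02 in GV oocytes and 7.11, 5.62 and 5.27 in 4-cell embryos. It had a peak in 1 2-cell library (4.31). It was open in all 3 8-cell libraries (5.63, 6.85 and 6.86) and all 3 morula libraries (4.21, 7.51 and 6.31), with no peak in any of the 6 ICM and ESC libraries.

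At the 8-cell stage, 517 of the 865 regions (59.8%, 95% exact binomial interval 56.4 to 63.1) overlapped a region of untreated embryos, against 63.7% of all GV oocyte regions. Of the 10031 regained regions with an ICM region, 96.7% did so, and of the 11427 regions with no 2-cell, 4-cell or ICM region, 21.0%. The binomial intervals here and below cover counting error only. Within each 8-cell library the 865 regions fell short of the regained regions with an ICM region, with differences of -34.3, -41.2 and -39.4 percentage points (mean -38.3 ± 3.59, SD, n = 3 libraries), and exceeded the regions not regained by 35.1 ± 3.50 points. An exact sign-flip permutation test over 3 libraries can give no two-sided p below 0.25, which was the p of both differences and of each of the 8 differences of this kind, also after Benjamini-Hochberg adjustment over the 8. Both differences were larger than their spread between libraries, in a design too small for the test to pass 0.05.

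In morulae, 536 of the 865 regions (62.0%) had a region, against 71.9% of all GV oocyte regions, 98.1% of regained regions with an ICM region and 30.2% of those not regained. The mean share with a peak was 57.3% ± 4.99 in 8-cell embryos and 59.8% ± 10.9 in morulae (SD, n = 3 each), a difference smaller than the spread between libraries (two-sided exact permutation test, p = 0.8; smallest possible p = 0.1). Both stages held 419 of the regions (48.4%, against 60.6% of all GV oocyte regions), and 231 (26.7%, against 25%) were in neither. Few regions separated the stages fully. Peaks in all 3 8-cell and 0 of 3 morula libraries were found in 16 of the 865 regions (1.85%, against 0.435% of all GV oocyte regions), and the opposite in 23 (2.66%, against 3%).

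Peaks in all 3 morula libraries were found in 365 of the 865 regions (42.2%, against 62.3% of all GV oocyte regions), and the 3 with the largest morula fold enrichment are given here. At chr2:125281470-125281745, morula fold enrichment was 8.75, 11.9 and 10.7, after 3.85, 5.26 and 5.35 in GV oocytes, 5.13, 5.12 and 4.86 in 4-cell and 7.39, 5.82 and 7.32 in 8-cell embryos. It had a peak in 1 2-cell library (4.85), in 1 ICM library (4.65) and in 1 ESC library (2.85). At chrX:107578250-107578604 the morula values were 8.22, 10.4 and 8.69 and the 8-cell values 7.07, 9.03 and 8.46, with no peak in any ICM or ESC library. At chr29:19769392-19769770 they were 8.63, 10.1 and 8.37 in morulae and 6.02, 4.18 and 5.45 in 8-cell embryos, with no ICM peak and ESC peaks in 2 libraries (6.24 and 5.23).

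In ESC, 292 of the 865 regions (33.8%, interval 30.6 to 37.0) had a region, against 59.4% of all GV oocyte regions, 92.4% of regained regions with an ICM region and 19.7% of those not regained. The mean share with a peak was 59.8% ± 10.9 in morulae and 33.0% ± 15.5 in ESC, with no overlap between the libraries, a difference of 26.8 points (exact permutation p = 0.1, the smallest possible; adjusted p = 0.25 over 5 comparisons between groups). The background level was 0.175, 0.656 and 0.404 in ESC and 0.452, 0.927 and 0.716 in morula libraries, and its part in the difference was not tested. The lowest ESC share came from the library at 0.175, and the ESC library at 0.656 held 44.7% against 49.2% in the morula library at 0.452. With the same number of top peaks taken from each library, the difference was 1.17 points (exact permutation p = 0.8). Peaks in all 3 morula and 0 of 3 ESC libraries were found in 157 regions (18.2%, against 7.42% of all GV oocyte regions), and the opposite in 17 (1.97%, against 0.987%).

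Peaks in all 3 ESC libraries were found in 106 of the 865 regions (12.3%, against 39.3% of all GV oocyte regions). The 3 with the largest ESC fold enrichment were chr29:1192805-1193091, chr20:61239926-61240418 and chr14:80075483-80076037. At the first, ESC values were 8.31, 12.0 and 9.17, and peaks were also present in all 3 8-cell (5.47, 5.68 and 6.44) and all 3 morula libraries (6.07, 6.90 and 6.27). It had a peak in 1 2-cell (4.64) and 1 ICM library (7.10) as well. The second had ESC values of 8.05, 10.7 and 10.7 and no peak in any 8-cell, morula or ICM library of untreated embryos, after 5.83 and 3.55 in 2 GV oocyte libraries. The third had ESC values of 6.74, 9.92 and 9.16, with scattered peaks before (in 1 library of 8-cell embryos, 2 of morulae and 1 of ICM).

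Read over the later untreated stages, the 865 regions fell into 8 patterns. The most frequent was an 8-cell and a morula region with no ESC region (264). Then came 167 with no region at any of the 3 stages, 155 with a region at all 3, 73 in morulae only, 69 in 8-cell embryos only, 64 in ESC only, 44 in morulae and ESC and 29 in 8-cell embryos and ESC. The first pattern held 30.5% of the 865 regions, against 11.1% of all GV oocyte regions, the second 19.3% against 20.9%, and the third 17.9% against 49.4%. Morulae only held 8.44% against 6.38%, 8-cell embryos only 7.98% against 2.23%, and ESC only 7.40% against 4.12%. Morulae and ESC held 5.09% against 4.93%, and 8-cell embryos and ESC 3.35% against 0.879%. An 8-cell TBE region was present in 143 of the 167 regions open at none of the 3 stages (85.6%), against 35.0% of all GV oocyte regions with that pattern. In the 8-cell and morula pattern it was present in 95.1%, against 73.1%, and in the pattern open at all 3 stages in 96.8%, against 94.0%.

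**Figure D2:**
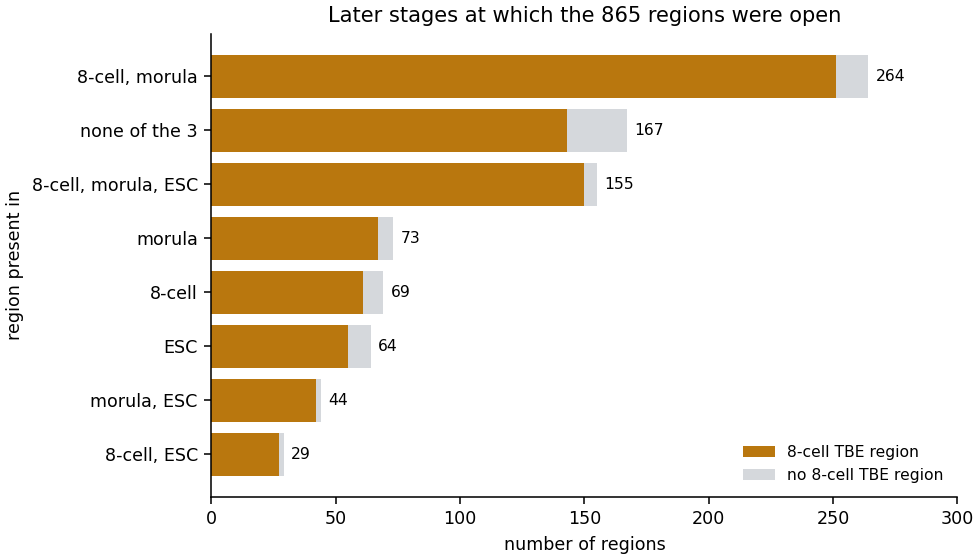
Number of the 865 regions (x axis) in each of 8 patterns of later regions in untreated 8-cell embryos, morulae and ESC (y axis), split by whether an 8-cell TBE region was present (orange) or not (grey). The orange part filled most of every bar, 143 of 167 in the pattern with no untreated later region and 251 of 264 in the 8-cell and morula pattern. Over all GV oocyte regions with these patterns the shares with an 8-cell TBE region were 35.0% and 73.1%.

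How far a region was from having an ICM region went with its state elsewhere. Among the 10896 regions regained at the 4-cell stage, an 8-cell region was present in 51.6% of the 426 with no ICM peak, 67.5% of the 453 with a peak in 1 ICM library, 82.6% of the 896 with peaks in 2 and 98.2% of the 9121 with peaks in 3. For morulae the shares were 52.8%, 70.2%, 88.2% and 99.1%, and for ESC 24.9%, 42.4%, 70.8% and 94.6%. In 8-cell TBE the range was much narrower, from 89.0% and 95.1% to 96.9% and 98.9%. Median GV oocyte fold enrichment in the 4 classes was 4.17, 4.24, 4.23 and 4.94, so the classes just inside and just outside the rule (peaks in 1 and in 2 ICM libraries) had nearly the same strength in the oocyte. These shares are a description, with no test, of regions sorted by the libraries the rule used.

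**Figure D3:**
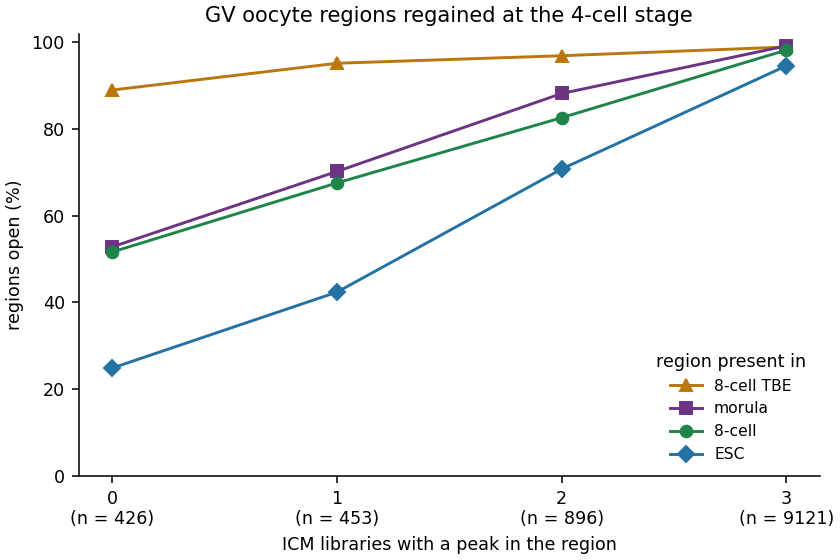
Percent of regained GV oocyte regions with a region in 8-cell TBE, morulae, 8-cell embryos or ESC (y axis), by the number of ICM libraries with a peak (x axis, with the number of regions). Shares rose from 51.6% to 98.2% in 8-cell embryos and from 24.9% to 94.6% in ESC, but only from 89.0% to 98.9% in 8-cell TBE.

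Among the groups that the rule did not use, the share of the 865 regions exceeded that of all GV oocyte regions by most in 8-cell TBE. There, 796 of the 865 regions (92.0%, interval 90.0 to 93.7) had a region, against 72.4% of all GV oocyte regions, 98.7% of regained regions with an ICM region and 41.8% of those not regained. The share with a peak was 62.8%, 53.1% and 56.0% in untreated 8-cell libraries and 91.0%, 97.6% and 69.5% in TBE libraries. Each TBE library was above each untreated library, in 9 of 9 pairs. The means were 57.3% ± 4.99 and 86.0% ± 14.7, a difference of -28.7 points, untreated minus TBE (exact permutation p = 0.1, the smallest possible; adjusted p = 0.25). The pooled lists of the 3 untreated libraries reached 645 regions (74.6%), fewer than TBE replicate 1 or 2 alone. Over all GV oocyte regions the pooled untreated lists reached 72.8%, TBE replicate 1 reached 71.6% and TBE replicate 2 reached 84.5%.

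Depth differed between these libraries and was given beside the result. The background level was 1.32, 0.806 and 0.808 in untreated and 1.24, 3.82 and 0.347 in TBE libraries. TBE replicate 1, at a level close to that of untreated replicate 1, held 91.0% against 62.8%. TBE replicate 3, with the lowest level of the 6, held 69.5%. The part of depth in the difference was not tested. With an equal number of top peaks from each library outside the 2-cell stage and 4-cell TBE, 31.4% and 67.7% of the regions chosen under that setting had a peak (exact permutation p = 0.1). With peaks under a fold enrichment of 3 removed, the shares were 52.4% and 64.3% and the libraries overlapped (exact permutation p = 0.4). TBE replicate 2, the deepest library, had the lowest fold enrichment: over the 264 regions with a peak in all 6 libraries its median was 3.13, against 4.22 and 4.72 in the other TBE and 4.16, 4.10 and 4.70 in untreated libraries (exact permutation p = 0.9 between the groups). With 3 libraries in each group and regions kept for having all 6 peaks, a difference in height could have been missed.

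In these libraries the gap between treated and untreated 8-cell embryos was wider in the 865 regions than in regained regions with an ICM region. Relative to those, the differences of the 865 regions were -34.3, -41.2 and -39.4 points in untreated libraries and -7.60, -1.85 and -21.5 points in TBE libraries, a difference of differences of -28.0 points (exact permutation p = 0.1, adjusted p = 0.15 over 3 comparisons chosen after the data were seen). The regained regions with an ICM region were near the ceiling in both groups (94.3% to 97.1% untreated and 90.9% to 99.4% TBE). Both sets were divided by the ICM lists of untreated samples. From 0 to 3 ICM libraries with a peak, the share with an 8-cell region rose from 51.6% to 98.2% in untreated embryos and from 89.0% to 98.9% in TBE. The test cannot separate the treatment from this way of choosing the sets. Relative to regions not regained, the 865 regions were higher by 39.2, 33.0 and 33.2 points in untreated and by 50.6, 29.9 and 51.1 points in TBE libraries, and this difference of -8.73 points did not exceed the spread (exact permutation p = 0.4). The regions not regained held 23.6%, 20.0% and 22.8% in untreated and 40.4%, 67.6% and 18.4% in TBE libraries, with the highest of these in the deepest TBE replicate.

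**Figure D4:**
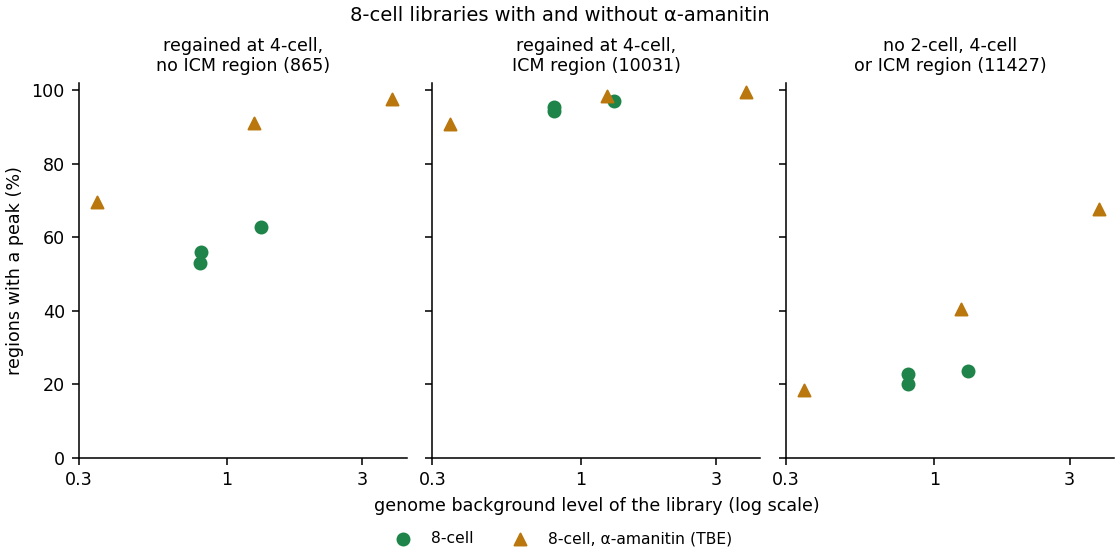
Percent of regions with a peak (y axis) against the genome background level (x axis, log scale) of the 3 untreated (green circles) and 3 α-amanitin treated (orange triangles) 8-cell libraries, for the 3 sets of GV oocyte regions. In the 865 regions every triangle lay above every circle, with the lowest triangle at 69.5% and the highest circle at 62.8%, while the regions with no 2-cell, 4-cell or ICM region overlapped between the groups.

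Counted region by region, 307 of the 865 (35.5%, against 15.7% of all GV oocyte regions) had an 8-cell TBE region and no untreated 8-cell region, and 28 (3.24%, against 7.01%) the opposite. Of the 348 without an untreated 8-cell region, 307 (88.2%) had a TBE region, against 43.3% of the 12112 such regions among all GV oocyte regions. By the strictest criterion, a peak in all 3 TBE and 0 of 3 untreated libraries, there were 113 regions (13.1%, against 3.21% of all), 0.798% of regained regions with an ICM region and 5.40% of those not regained. The opposite held for 4 of the 865 (0.462%, against 1.75% of all). Of the 220 with no peak in any untreated 8-cell library, 187, 207 and 118 had a peak in TBE replicates 1, 2 and 3 (85%, 94.1% and 53.6%). Of the 9063 such regions among all GV oocyte regions, 36.7%, 64.1% and 15.4% did. The gap was present at each strength in the oocyte: over 4 classes of GV oocyte fold enrichment, from weakest to strongest, the mean share was 47.5%, 54.2%, 60.8% and 67.7% in untreated and 85.7%, 84.2%, 87.8% and 86.3% in TBE libraries. Over all GV oocyte regions it was 40.8%, 54.7%, 68.8% and 87.8% in untreated and 57.0%, 63.6%, 72.8% and 86.6% in TBE libraries. A smaller gap was thus present there too, except in the strongest class.

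Of the 113 regions that by that criterion were open at the 8-cell stage only under α-amanitin, 3 had the largest TBE fold enrichment. They were chr11:43209504-43209847 and 2 regions on unplaced scaffolds. The chromosome 11 region had TBE values of 7.57, 5.40 and 7.25 and no untreated 8-cell peak, after 4.64, 4.93 and 5.82 in GV oocytes and 4.13, 5.18 and 3.51 in 4-cell embryos. It was also open in all 3 ESC libraries (5.43, 7.32 and 6.84) and had a peak in 1 2-cell (5.39), 1 ICM (2.85) and 1 morula library (3.13). The first scaffold region, 697 bp wide, had TBE values of 7.90, 4.48 and 8.32, after 6.11, 7.67 and 5.02 in GV oocytes and 6.25, 4.64 and 3.27 in 4-cell embryos, with no peak in any untreated library of a later stage. That region also had a 2-cell peak of 5.20 in 1 library. The second, 335 bp wide, had 7.50, 5.18 and 5.48 and was open in all 3 4-cell TBE libraries as well (6.48, 7.31 and 6.21). It had a 2-cell peak of 5.26 in 1 library.

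The 4 regions with the opposite pattern included chr18:57002697-57003212, chr16:1515747-1516058 and chr20:7495415-7495754, the 3 with the largest untreated fold enrichment. The first had 8-cell values of 8.09, 6.91 and 8.21 and no 8-cell TBE peak, and was open in all 3 morula (4.54, 4.80 and 6.42) and ESC libraries (7.55, 9.72 and 7.25). It had a 2-cell peak of 4.98 in 1 library. The second had 6.20, 5.76 and 5.47 in 8-cell embryos and 5.95, 5.69 and 6.04 in morulae, with no peak in any TBE library of the 3 stages. The third had 4.46, 4.24 and 6.65 in 8-cell embryos, likewise with no peak in any TBE library.

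At the 4-cell stage the order of treated and untreated embryos was the other way round, but the libraries overlapped. A 4-cell TBE region was present in 101 of the 865 regions (11.7%, against 10.7% of all GV oocyte regions). Because the rule used the untreated 4-cell lists, each untreated library was measured on regions chosen again without it (221, 389 and 598 regions), and the TBE libraries on the same 3 sets. These sets were still chosen for a region in the remaining untreated 4-cell libraries, and no TBE library was used to choose them. A difference between the groups therefore cannot be separated from this choice. The untreated shares were then 76.9%, 44.7% and 28.8% and the TBE shares 65.3%, 12.9% and 9.28%, a difference in means of 21.0 points (50.1% ± 24.5 against 29.2% ± 31.3, exact permutation p = 0.5, adjusted p = 0.625). The background level was 0.494, 0.453 and 0.223 in untreated and 0.324, 0.134 and 0.157 in TBE libraries, and the deepest library of each group had the largest share. Whether depth accounted for the difference was not tested.

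At the 2-cell stage almost nothing was called in either group. A 2-cell TBE region was present in 55 of the 865 regions (6.36%, against 9.1% of all GV oocyte regions). On regions chosen again without each untreated library in turn (875, 876 and 878 regions), untreated shares were 2.74%, 3.88% and 12.2% and TBE shares 1.83%, 15.9% and 21.7%, a difference of -6.85 points that did not exceed the spread (exact permutation p = 0.4, adjusted p = 0.625). The effects at the 4-cell and the 8-cell stage, TBE minus untreated, were -21.0 points on the regions chosen again and 28.7 points on the 865 regions, and differed by 49.7 points. With treatment labels permuted within each stage over these shares, the two-sided permutation p of this difference was 0.07, over 400 labellings. The regions were not chosen again for each labelling, so this p leaves out their choice from untreated libraries. Over all GV oocyte regions, mean TBE shares were likewise below untreated ones in 4-cell libraries (18.6% against 37.5%). They were above them in 8-cell libraries (70.0% against 63.0%).

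The 865 regions were spread over all 29 autosomes, the X chromosome and 58 unplaced scaffolds, and rarely lay together. Only 44 had another of them within 20 kb, and the median distance to the nearest was 641 kb. An ICM region lay within 10 kb of 420 (48.6%), much as for the regions not regained (50.9%), and the median distance to the nearest ICM region was 9.85 kb and 9.65 kb in these sets. The share of regained regions that had no ICM region was 7.49% over placed chromosomes, with a median of 7.20% per chromosome. It ranged from 4.05% to 16.0% on 29 of the 30 placed chromosomes and reached 23.0% on chromosome 27, where 41 of 178 regained regions belonged to the 865. On chromosome 24, with the 16.0%, they were 38 of 238.

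On placed chromosomes the regions were most frequent towards the high-coordinate ends. Taking the last base of any peak in the 30 lists as the end, 211 of the 801 placed regions (26.3%, interval 23.3 to 29.5) lay within 5 Mb of it, against 8.16% of regained regions with an ICM region, 18.3% of those not regained and 12.8% of all GV oocyte regions. Within 2 Mb the shares were 12.2%, 3.97%, 7.78% and 5.77%. At the low-coordinate end the sets were close together, with 6.74%, 4.93%, 4.70% and 4.88% within 5 Mb. Of the 1019 regained regions in the last 5 Mb, 20.7% had no ICM region, against 6.10% of the 9679 elsewhere. An equal number of top peaks was also taken from each library outside the 2-cell stage and 4-cell TBE. Of the regions then chosen, 12.7% lay within 5 Mb of the high-coordinate end, against 10.7% of all GV oocyte regions. This pattern was noticed in these lists and is given with no test.

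**Figure D5:**
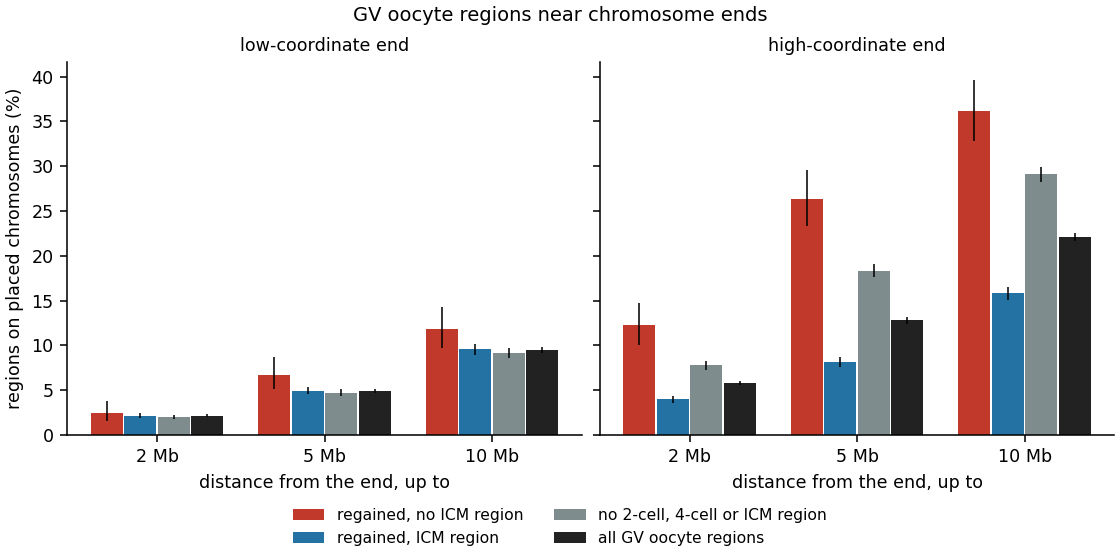
Percent of regions on placed chromosomes (y axis) within 2, 5 or 10 Mb (x axis) of the low-coordinate end (left) and the high-coordinate end (right), with 95% exact binomial intervals as error bars. Within 5 Mb of the high-coordinate end lay 26.3% of the 865 rule-chosen regions that were on placed chromosomes, against 12.8% of all GV oocyte regions, while at the low-coordinate end the figures were 6.74% and 4.88%.

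Of 540 windows of 5 Mb with a GV oocyte region, 200 held none of the 865. The fullest, with 14, was chr27 from 40 to 45 Mb, where 43.8% of the 32 regained regions lacked an ICM region. Next came the windows of chr16 from 75 to 80 Mb (13 of 35), chr18 from 60 to 65 Mb (13 of 86) and chr13 from 80 to 85 Mb (12 of 21, or 57.1%), all in the last stretch of their chromosomes. A window at the other end, chr24 from 0 to 5 Mb, held 11 of 35, and an inner window of chr27, from 5 to 10 Mb, 10 of 26. The 211 regions near the high-coordinate end had 8-cell shares of 59.2%, 50.7% and 51.7% in untreated and 95.3%, 99.5% and 76.3% in TBE libraries. For the 590 elsewhere on placed chromosomes these were 65.6%, 55.4% and 60.2% and 89.8%, 97.1% and 68.5%, so the gap between treated and untreated embryos was present in both places.

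Unplaced scaffolds held 64 of the 865 regions, with at most 2 on any scaffold. Of the 198 regained regions on unplaced scaffolds, 32.3% had no ICM region. Among the 64 regions and the 801 placed ones, an 8-cell region was present in 40.6% and 61.3%, a morula region in 17.2% and 65.5%, an ESC region in 9.38% and 35.7%, and an 8-cell TBE region in 87.5% and 92.4%. Over all GV oocyte regions on unplaced scaffolds and placed chromosomes the shares were 66.6% and 63.6% in 8-cell embryos, 45.6% and 72.4% in morulae, 40.2% and 59.8% in ESC, and 85.7% and 72.1% in 8-cell TBE. By library, the shares on unplaced scaffolds and on placed chromosomes did not overlap in morulae (12.5%, 20.3% and 15.6%, against 52.2%, 75.2% and 62.4%) or in 8-cell embryos (48.4%, 39.1% and 31.3%, against 63.9%, 54.2% and 57.9%). They overlapped in ESC (0%, 18.8% and 14.1%, against 16.6%, 46.8% and 40.8%). These differences were not tested. Of the 167 regions with no region in 8-cell embryos, morulae or ESC, the 3 strongest at the 4-cell stage all lay on unplaced scaffolds. Apart from the 296 bp region described above, these were a 253 bp region with 4-cell values of 7.40 and 8.79 in 2 libraries and 8-cell TBE values of 9.76, 6.37 and 11.7, and a 225 bp region with 4-cell values of 9.38, 5.17 and 6.43 and a peak in only 1 of 3 8-cell TBE libraries (4.26). The 253 bp region also had a 2-cell peak of 6.77 in 1 library and peaks in all 3 2-cell TBE libraries (5.88, 6.65 and 7.69).

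The 2 widest regions were unlike each other. At chr24:56948261-56951438 (3178 bp) the oocyte values were 5.02, 4.00 and 3.26 and the 4-cell values 3.25 and 3.53 in 2 libraries. It had no peak in any other library, treated or untreated. At chrX:115731774-115734517 (2744 bp) the oocyte values were 3.72, 3.39 and 3.72, and peaks were present in all 3 libraries of 8-cell embryos (3.54, 3.53 and 3.40), morulae (3.39, 3.52 and 3.73), 4-cell TBE (3.78, 3.84 and 3.46) and 8-cell TBE (3.23, 2.71 and 3.38). It had no peak in any ICM or ESC library.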

How the data were processed

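ATAC-seq peak lists of 30 libraries were used. Per the paper's methods and the submitters' processing notes, reads were trimmed with Trim Galore, aligned to ARS-UCD1.2 with BWA 0.7.17 and filtered with SAMtools 1.7, and the authors called broad peaks with MACS2 2.1.1 at a q-value threshold of 0.05. The deposited lists give 1 set of peaks per library, with no read counts, so read depth was known only through the background level. The fold enrichment and the −log10 p- and q-values were used as deposited by the authors, and the deposited integer score was not used. The ratio of pile-up to background is reported as fold.

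Regions were made by merging peaks that shared 1 bp, keeping those with peaks of at least 2 replicates. Presence in a library meant an overlap of 1 bp with a peak. Shares of regions were compared over libraries with two-sided exact permutation tests (3 against 3, smallest p 0.1) or, within libraries, sign-flip tests (3 pairs, smallest p 0.25). Oocyte and embryo replicates were separate collections, so p-values measure the spread between these, and for ESC only that between libraries, which may be technical. Scripts were tested on 200 simulated region sets, with 0 mismatches. Analysis ran in Python 3.11.15 with SciPy 1.17.1, NumPy 2.4.6 and pandas 2.3.3, and plots were drawn with Matplotlib 3.10.9.

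The regions, comparisons and naming rules were chosen with earlier results of these data known. Regions named in the text were ranked by fold enrichment: the first 3 among those with peaks in all 6 GV oocyte and 4-cell libraries, in all 3 untreated but 0 TBE 8-cell libraries, the reverse of this, in all ESC libraries, in all morula libraries, and (by 4-cell values) with no later region, plus the 2 widest. Alternatives were stricter peaks, equal peak numbers, autosomes only, a 50% overlap, other replicate requirements and leaving out each replicate. Neighbouring genes, gene lists, sequences and motifs were not analysed here, because no genome or annotation of ARS-UCD1.2 was used.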

Additional observations from a re-analysis of the deposited data

Results flagged for a closer look

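The difference between α-amanitin treated and untreated embryos was negative at the 4-cell and positive at the 8-cell stage. The 4-cell effect was measured on 221, 389 and 598 regions chosen again without 1 untreated library each, and the 8-cell effect on the 865 regions, so the region sets were not the same. All of these sets were chosen for a region in untreated 4-cell embryos and none in untreated ICM, with no use of TBE libraries. The comparison cannot separate the treatment from this choice. TBE minus untreated was -21.0 percentage points at the 4-cell stage, where the libraries of both groups overlapped, and 28.7 points at the 8-cell stage, where they did not. These effects differed by 49.7 points. With treatment labels permuted within each stage the permutation p was 0.07 over 400 labellings, with the regions not chosen again for each labelling. With differences taken by replicate number, which were not shown to pair the samples, an exact permutation of 3 against 3 differences gave p = 0.1, the smallest possible. The comparison was chosen after the data were seen. The background level in TBE was lower than in same-numbered untreated libraries of 4-cell embryos. Among 8-cell libraries it was lower in replicates 1 and 3 and higher in replicate 2. The part of depth in the difference was not tested. With the same number of top peaks from each library outside the 2-cell stage, the difference was 66.5 points (exact permutation p = 0.1). The same signs were seen over all 33347 GV oocyte regions, so the change of sign was not particular to the chosen regions. Among 4-cell libraries, the mean share of all regions with a peak was 37.5% ± 18.2 untreated and 18.6% ± 19.1 in TBE (SD, n = 3 each). Among 8-cell libraries it was 63.0% ± 1.92 and 70.0% ± 15.4. Libraries of both groups overlapped in each case, with no test.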

How the results depend on the processing

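The number of regions depended strongly on how peaks were chosen, and under each alternative the regions were chosen again. It was 230 when only peaks reaching a −log10 q of 3 were used, and 2085 with at most 14355 top peaks of each library outside the 2-cell stage. Only 4-cell TBE replicates 2 and 3 had fewer peaks than that outside the 2-cell stage. The number was 4580 when 1 replicate sufficed for a region and 296 when all 3 were needed. Without 1 replicate it was 320 to 961 (320 without replicate 1 and 367 without replicate 2). It was 979 with a fold enrichment of at least 3, 772 on autosomes and 1054 with 50% overlap. Of 172 differences under the alternatives, 164 kept their direction. This count includes the entries with the replicate number as a block or with permuted labels, where only the test changed and the direction could not. The difference between 8-cell embryos and morulae reversed to 2.75 (−log10 q), 6.57 (equal peaks), 1.14 (50% overlap) and 2.36 (all 3 replicates) and ranged from -6.09 to 7.90 without 1 replicate (7.90 without replicate 2). Untreated minus TBE at the 8-cell stage, relative to regions not regained, reversed to 4.29 with all 3 replicates and ranged from -9.81 to 6.33 without 1 replicate (6.05 without replicate 1 and 6.33 without replicate 3). For the plain 8-cell comparison the difference stayed negative, from -36.3 to -12.0, at -13.9, -14.7 and -23.3 without replicates 1, 2 and 3, with p from 0.1 to 0.4. The cause of these changes was not tested.

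The percent within 5 Mb of the high-coordinate end was 20.5 with −log10 q of at least 3 (10.9 for all GV oocyte regions), 12.7 with equal peaks (10.7), 20.5 with 50% overlap (12.8), 17.9 with any replicate (12.9), 20.7 with all 3 replicates (11.7) and 20.8 to 26.1 without 1 replicate. In these settings it was above that of all GV oocyte regions. Shallow lists limit the 2-cell groups, 4-cell TBE and ESC replicate 1, where an open region could go uncalled.

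Treated and untreated embryos shared replicate numbers, and the embryos of a collection were divided between them, but the labels do not tie a number to a collection. Deviations of same-numbered 8-cell libraries over the 865 regions correlated at 0.030, 0.033 and 0.039, those of 4-cell libraries at -0.047, -0.081 and -0.044, and those of 2-cell libraries at 0.141, -0.001 and 0.163. For different-numbered libraries the range was -0.049 to 0.012 at the 8-cell, -0.023 to 0.075 at the 4-cell and -0.208 to 0.163 at the 2-cell stage. Same-numbered values were thus the higher ones at the 8-cell and the lower ones at the 4-cell stage. Without a shared direction, the numbers were not taken to pair the samples. With the replicate number as a block, the differences were the same, -28.7 at the 8-cell (p = 0.25, the smallest possible), 21.0 at the 4-cell (p = 0.25) and -6.85 at the 2-cell stage (p = 0.5), by exact sign-flip permutation.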
